A study of Mus musculus with 12 samples.

Results

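The genes described here code for proteins and enzymes of central myelin and of the oligodendrocytes that make it, namely *Opalin*, *Mbp*, *Mog*, *Mag*, *Mobp*, *Cnp*, *Aspa*, *Cldn11* and *Ugt8a*. They were chosen by symbol, with earlier results of these data known. Each is represented by the transcript cluster of the array that carried its symbol alone. Each of the 9 genes had 1 such cluster, and all 9 passed the filter on low values, among 16425 named genes that did. RNA was taken from brains of 12 adult male mice and hybridized to Affymetrix mouse gene arrays. The sources used here give the mice as 16 to 20 weeks old. Trained Stau2GT and trained WT mice were tested for 4 weeks in the open field, in the recognition and location of objects and in the Barnes maze, and naive Stau2GT and naive WT mice were not, with 3 mice in each group. Stau2GT mice (B6.129P2-Stau2Gt(RRG396)Byg) carry a gene trap in *Stau2*, the gene of an RNA-binding protein, and WT mice were C57Bl/6J. The sources used here do not say whether the WT mice were littermates of the Stau2GT mice, so the gene trap and other differences between the stocks cannot be told apart. The names of the arrays carry one run label for all naive arrays and another for all trained arrays, so training and run cannot be told apart. Each genotype comparison within a training state stayed inside 1 run.

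Oligodendrocytes wrap axons of the central nervous system in many layers of membrane, which insulate the axon and speed conduction. Myelin holds unusually large amounts of galactolipid and cholesterol, and its compact layers are held together by a small number of abundant proteins. The genes of these proteins come on as precursors leave the cell cycle and mature, under transcription factors such as Sox10 and Myrf, and new oligodendrocytes continue to form in the adult brain. The mRNA of *Mbp* is known for its transport in granules into the processes of the cell, where the protein is made locally. Within the set, *Mbp* and *Mobp* code for basic proteins of compact myelin. *Mog*, *Mag* and *Opalin* code for membrane glycoproteins, of which Mog lies on the outermost surface and Mag faces the axon. *Cnp* codes for a phosphodiesterase of the cytoplasmic channels of myelin, and *Cldn11* for the claudin of its tight junctions. *Ugt8a* codes for the enzyme that makes galactosylceramide, and *Aspa* for the enzyme that splits N-acetylaspartate into aspartate and acetate.

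The letters around the start sites of these genes were read for motifs of factors known from the lineage. RefSeq windows of 300 bases (250 before and 50 after a start site, build GRCm38.p6) were at hand for 8 of the 9 genes, in 10 windows. CTGGCAC, one form of the letters bound by Myrf, was searched on both strands and was found for *Mag*, *Cnp* and *Opalin*, which is 3 of 8 genes (37.5%), against 5.73% of all 27025 genes with a window. By window, it was present in 4 of 10, against 5.01% of all 32851 windows. Overlapping windows of *Mag* hold the same site, so 2 of these 4 count it. The short stretches around these letters are shown because they are what the 3 genes have in common, with the letters, or their form read on the other strand, in capitals.
Mag, chr7:30914915-30914941, minus strand: caggcggcccCTGGCACccagggggca
Cnp, chr11:100574848-100574874, plus strand: ccgctgcttcCTGGCACtcaggtttcc
Opalin, chr19:41077064-41077087, minus strand: aagacctgcaGTGCCAGtgagaga
The capitals begin 68 and 9 bases before 2 annotated start sites of *Mag*, 81 bases before that of *Cnp* and at base 37 after that of *Opalin*. The letters ACAAT, which Sox factors can bind, were found in 1 of the 10 windows (*Aspa*), against 31% of all windows. The E-box CAGCTG was found in 2 of the 10 (*Aspa* and *Opalin*, where it did not overlap the other letters), against 16.3%. These matches describe the sequence only.

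*Stau2* itself was measured to check the labels. It stood at 7.95 to 8.07 in trained Stau2GT mice, against 8.16 to 8.30 in trained WT mice, and at 8.06 to 8.08 in naive Stau2GT mice, against 8.21 to 8.32 in naive WT mice. All values here are log2 RMA values, 1 per cluster and array. The ranges did not overlap in either training state, with log2 fold changes of -0.23 in trained mice (adjusted p = 0.330 from limma) and -0.18 in naive mice (adjusted p = 0.954), and *Stau2* stayed well above the filter in every mouse. Arrays of one group correlated at 0.978 to 0.980 for trained Stau2GT, which was the lowest of the 4 groups, and at 0.982 to 0.984 for trained WT and 0.987 to 0.988 for both naive groups. None of the 9 genes lies on chromosome 1, which carries *Stau2*.

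*Opalin* and *Cldn11* were higher in Stau2GT than in WT brains in both training states, without overlap between the mice. *Opalin* stood at 7.71, 7.73 and 7.45 in trained Stau2GT mice and at 7.15, 7.29 and 7.22 in trained WT mice. In naive mice it stood at 7.63, 7.48 and 7.47 in Stau2GT and at 6.97, 7.29 and 7.07 in WT brains. The lowest of the 6 Stau2GT mice, at 7.45, was thus above the highest of the 6 WT mice, at 7.29. The group means were 7.63 ± 0.16 in trained Stau2GT, 7.22 ± 0.07 in trained WT, 7.53 ± 0.09 in naive Stau2GT and 7.11 ± 0.16 in naive WT mice (SD, n = 3 each). The log2 fold change was 0.41 in trained mice (standard error 0.10, adjusted p = 0.274 from limma) and 0.42 in naive mice (standard error 0.10, adjusted p = 0.607). Over both training states *Opalin* was higher by 0.41 (standard error 0.07, 95% confidence interval 0.25 to 0.57), which is 33.2%, with an unadjusted p of 0.000139 and an adjusted p of 0.0903 from limma. It ranked 43 of the 27966 clusters tested by unadjusted p and did not pass the threshold of 0.05. When labels were exchanged within training states, the exact permutation test gave p = 0.005 (two-sided), the smallest that 400 arrangements allow. Any cluster without overlap in the same direction in both states must get this value, so it only restates that arrangement. The adjusted p fell below the threshold in 2 of the settings tried. One was the fit with each gene counted once (0.0433), in which fewer features were tested, and the other left out trained Stau2GT mouse 3 (0.0427, log2 fold change 0.46).

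*Cldn11*, the tight junction gene, had the same arrangement of groups at a smaller size. It stood at 10.24, 10.17 and 10.14 in trained Stau2GT mice and at 10.06, 10.09 and 10.08 in trained WT mice. In naive mice it stood at 10.06, 10.13 and 10.08 in Stau2GT and at 9.91, 9.89 and 9.99 in WT brains. The groups did not overlap within a training state, although trained WT and naive Stau2GT mice overlapped. The log2 fold change was 0.11 in trained mice (95% confidence interval -0.02 to 0.23) and 0.16 in naive mice (0.03 to 0.29), and 0.13 over both states (0.04 to 0.22, adjusted p = 0.627 from limma, exact permutation p = 0.005). *Opalin* and *Cldn11* were the only 2 of the 9 genes without overlap in both training states. Among all clusters tested, 0.347% were higher in Stau2GT mice in this way. None of the 9 genes passed over both states with limma, where 0.118% of all clusters did, and 2 of 9 were higher at an unadjusted p under 0.05, against 3.19% of all clusters.

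**Figure D1:**
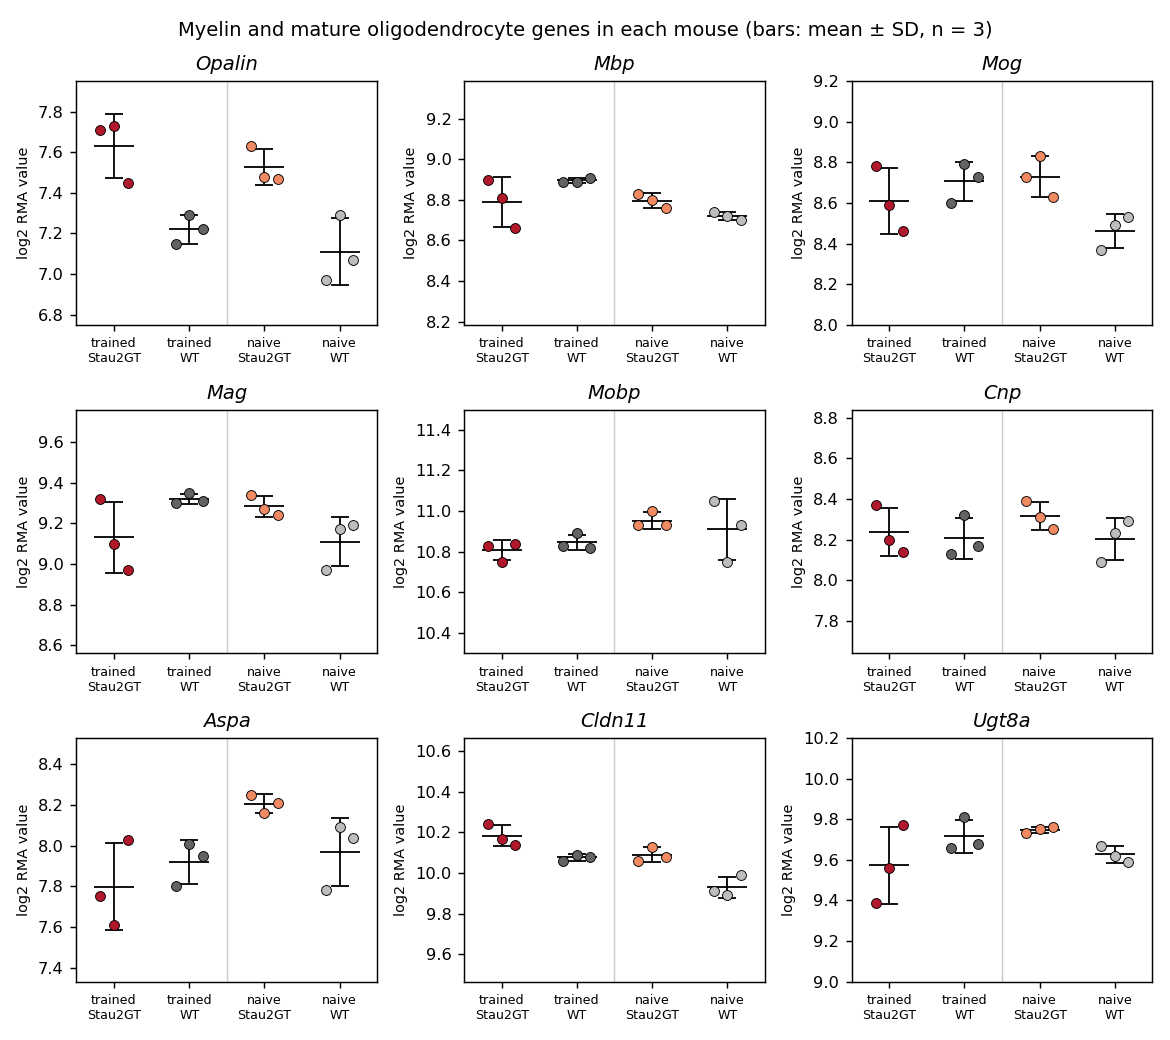
The log2 RMA value of each of the 9 genes in each mouse, in 4 groups from left to right (trained Stau2GT, trained WT, naive Stau2GT, naive WT), with horizontal lines at the group mean and bars of 1 SD (n = 3). Each panel spans the same length of log2 units around its own centre. *Opalin* is the gene whose 6 Stau2GT mice (7.45 to 7.73) all lie above its 6 WT mice (6.97 to 7.29).

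In trained mice the mice of both genotypes overlapped for the other 7 genes. *Mag*, *Ugt8a*, *Aspa*, *Mbp*, *Mog* and *Mobp* had lower means in Stau2GT than in WT brains, and *Cnp* a slightly higher one. Over the set, 3 of the 9 genes had a log2 fold change above 0, as had 50.9% of all clusters. The median was -0.10, against 0.00 over all clusters. None passed after adjustment, whether with limma (0.179% of all clusters did) or with the methods' t-test. From limma, 1 of 9, *Opalin*, was higher at an unadjusted p under 0.05 (4.86% of all clusters). The 2 genes without overlap, *Opalin* and *Cldn11*, stand beside 6.15% of all clusters that were higher in this way.

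Among the basic proteins of compact myelin, *Mbp* stood at 8.90, 8.81 and 8.66 in trained Stau2GT mice and at 8.89, 8.89 and 8.91 in trained WT mice. *Mobp* stood at 10.83, 10.75 and 10.84 in trained Stau2GT mice and at 10.83, 10.89 and 10.82 in trained WT mice. The WT mice lay close together for both genes, and for *Mbp* Stau2GT mice 2 and 3 were below all of them, mouse 3 the farthest. The log2 fold changes were -0.11 for *Mbp* (95% confidence interval -0.25 to 0.04) and -0.04 for *Mobp* (-0.21 to 0.13). Without Stau2GT mouse 3 that of *Mbp* was -0.04, and without Stau2GT mouse 1 it was -0.16. *Mobp* had -0.01 without Stau2GT mouse 2 and -0.02 without WT mouse 2.

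Of the glycoproteins, *Mog* stood at 8.78, 8.59 and 8.46 in trained Stau2GT mice and at 8.60, 8.79 and 8.73 in trained WT mice. *Mag*, whose protein faces the axon, stood at 9.32, 9.10 and 8.97 in trained Stau2GT mice and at 9.30, 9.35 and 9.31 in trained WT mice. For both genes Stau2GT mouse 1 was level with the WT mice, and mice 2 and 3 were below all of them. The log2 fold changes were -0.10 for *Mog* (-0.30 to 0.11) and -0.19 for *Mag* (-0.39 to 0.01, adjusted p = 0.595 from limma). Without Stau2GT mouse 1, 3 of the 9 genes were lower without overlap, where 13.6% of all clusters were with these 2 against 3 arrays. With it 0 of the 9 were, against 5.02% of all clusters. Without that mouse the log2 fold change was -0.18 for *Mog* and -0.28 for *Mag*, and without mouse 3 it was -0.02 for *Mog* and -0.11 for *Mag*. For *Mog* it was also -0.15 without WT mouse 1 and -0.06 without WT mouse 2.

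*Cnp* stood at 8.37, 8.20 and 8.14 in trained Stau2GT mice and at 8.13, 8.32 and 8.17 in trained WT mice, and the 2 groups were mixed throughout their range. Its log2 fold change was 0.03 (-0.16 to 0.22), and its sign changed without Stau2GT mouse 1 (-0.0367), without WT mouse 1 (-0.0083) and with arrays centered on their medians (-0.0067). Of the enzymes, *Aspa* stood at 7.75, 7.61 and 8.03 in trained Stau2GT mice and at 7.80, 8.01 and 7.95 in trained WT mice. *Ugt8a* stood at 9.39, 9.56 and 9.77 in trained Stau2GT mice and at 9.66, 9.81 and 9.68 in trained WT mice. For both enzymes it was mice 1 and 2 of the Stau2GT group that were below all WT mice, while mouse 3 was within their range for *Ugt8a* and just above it for *Aspa*, unlike for *Mog* and *Mag*. The log2 fold changes were -0.12 for *Aspa* (-0.38 to 0.13) and -0.14 for *Ugt8a* (-0.34 to 0.05). For *Aspa* the value was -0.03 without Stau2GT mouse 2, -0.24 without Stau2GT mouse 3 and -0.08 without WT mouse 2. For *Ugt8a* it was -0.05 without Stau2GT mouse 1 and -0.24 without mouse 3.

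In naive mice all 9 genes had a higher mean in Stau2GT than in WT brains, by 0.04 (*Mobp*) to 0.42 (*Opalin*) on the log2 scale. The median log2 fold change was 0.16, and over all clusters tested 49.0% were above 0 with a median of 0.00. For 7 of the 9 genes all 3 Stau2GT mice lay above all 3 WT mice, an arrangement that 6.39% of all clusters had. The exceptions were *Mobp* and *Cnp*. In bulk brain RNA, more oligodendrocytes and more of these mRNAs per oligodendrocyte cannot be told apart. None of the 9 passed after adjustment, whether with limma (0.0858% of all clusters did) or with the methods' t-test. An unadjusted p under 0.05 from limma was found for 3 of 9, *Opalin*, *Mog* and *Cldn11*, all higher, against 2.45% of all clusters. Leaving out each array in turn gave 8 or 9 genes above 0, 7 or 8 without overlap and a median of 0.14 to 0.19. The share of all clusters without overlap was not taken for these smaller sets of arrays.

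*Mog* had the largest naive difference after *Opalin*. It stood at 8.73, 8.83 and 8.63 in naive Stau2GT mice and at 8.37, 8.49 and 8.53 in naive WT mice. The lowest Stau2GT mouse, at 8.63, was above the highest WT mouse, at 8.53. The difference of 0.27 had a standard error of 0.09, and limma gave an unadjusted p of 0.0166 and an adjusted p of 0.954. *Mag* stood at 9.34, 9.27 and 9.24 in naive Stau2GT mice and at 8.97, 9.17 and 9.19 in naive WT mice. WT mouse 1 was the lowest of its group by a wide margin, and the log2 fold change of 0.17 (-0.03 to 0.38) was 0.10 without that mouse.

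The basic protein genes differed little in naive mice. *Mbp* stood at 8.83, 8.80 and 8.76 in naive Stau2GT mice and at 8.74, 8.72 and 8.70 in naive WT mice. Both groups were tight and did not overlap, at a log2 fold change of 0.08 (-0.07 to 0.22). *Mobp* stood at 10.93, 11.00 and 10.93 in naive Stau2GT mice and at 11.05, 10.75 and 10.93 in naive WT mice. The WT mice spread to both sides of the Stau2GT mice, and the log2 fold change of 0.04 (-0.13 to 0.21) turned to -0.0367 without WT mouse 2.

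*Cnp* stood at 8.39, 8.31 and 8.25 in naive Stau2GT mice and at 8.09, 8.23 and 8.29 in naive WT mice, with 1 Stau2GT mouse below the highest WT mouse. Its log2 fold change was 0.11 (-0.08 to 0.30), and 0.06 without WT mouse 1. *Aspa* stood at 8.25, 8.16 and 8.21 in naive Stau2GT mice and at 7.78, 8.09 and 8.04 in naive WT mice. The WT group held 1 mouse far below the others, mouse 1, which was also the lowest naive WT mouse for *Opalin*, *Mog*, *Mag* and *Cnp*. The log2 fold change of *Aspa* was 0.24 (-0.02 to 0.49, adjusted p = 0.998 from limma) and 0.14 without that mouse. *Ugt8a* stood at 9.73, 9.75 and 9.76 in naive Stau2GT mice and at 9.67, 9.62 and 9.59 in naive WT mice, where the Stau2GT mice were nearly equal and all above the WT mice. Its log2 fold change was 0.12 (-0.08 to 0.32).

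**Figure D2:**
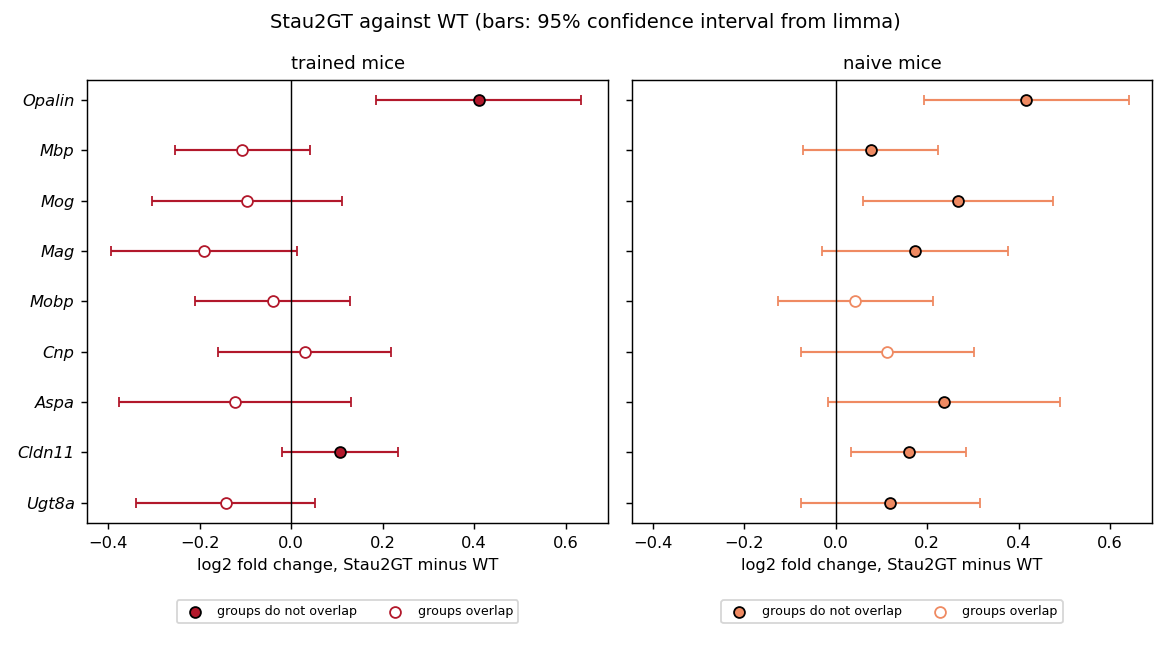
Log2 fold changes of Stau2GT against WT brains for the 9 genes in trained (left) and naive (right) mice, with 95% confidence intervals from limma. Filled points mark genes whose mice did not overlap, which are 2 in trained and 7 in naive mice, and the vertical line marks no difference.

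The difference between the 2 genotype comparisons was tested directly, as the interaction of genotype and training. For *Opalin* it was -0.01 (95% confidence interval -0.32 to 0.31). *Mog*, *Mag*, *Aspa*, *Ugt8a*, *Mbp* and *Mobp* had differences of opposite sign, below 0 in trained and above 0 in naive mice. For *Mog* and *Mag* the interaction was -0.36 each (for *Mog* adjusted p = 0.601 and for *Mag* adjusted p = 0.592 from limma). For *Aspa* it was also -0.36 (unadjusted p = 0.0491, adjusted p = 0.649), and for *Ugt8a* -0.26, *Mbp* -0.18, *Mobp* -0.08, *Cnp* -0.08 and *Cldn11* -0.05. All 9 interaction values were below 0, where 49.1% of all clusters were, and 3 of 9 had an unadjusted p under 0.05 in that direction, against 3.30%. None passed after adjustment (0.0215% of all clusters did), and the sign for *Opalin* was not stable, since it was above 0 with quantile normalization, with array weights and without some single arrays. The 4 groups enter this test together, so it rests on the same arrays as the comparisons above.

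Training was compared within each genotype, with run and training not separable. In WT mice 7 of the 9 genes had a higher mean after training, where 50.9% of all clusters had. The means of *Mog*, *Mag*, *Mbp* and *Cldn11* were higher in trained than in naive brains and the mice did not overlap. *Mog* was higher by 0.24 (95% confidence interval 0.04 to 0.45), *Mag* by 0.21 (0.01 to 0.41), *Mbp* by 0.18 (0.03 to 0.32) and *Cldn11* by 0.15 (0.02 to 0.27). These 4 genes without overlap compare with 11.4% of all clusters that were higher in this way, and the same 4 were those with an unadjusted p under 0.05 from limma, against 7.93%. None of the 9 passed after adjustment, whether with limma, where 1.40% of all clusters did, or with the methods' t-test. The adjusted p of these 4 from limma lay between 0.230 and 0.297. *Opalin* (0.11), *Ugt8a* (0.09), *Cnp* (0.0033), *Aspa* (-0.05) and *Mobp* (-0.06) had intervals that included 0.

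In Stau2GT mice 7 of the 9 genes had a lower mean in trained than in naive brains, where 46.4% of all clusters had. The naive and trained arrays are those of the genotype comparisons, so these values are not independent of them. *Aspa* had the largest difference, at 7.80 ± 0.21 in trained and 8.21 ± 0.05 in naive Stau2GT mice (SD, n = 3 each), and the highest trained mouse, at 8.03, was below the lowest naive mouse, at 8.16. Its log2 fold change was -0.41 (95% confidence interval -0.66 to -0.16, unadjusted p = 0.00453, adjusted p = 0.0598 from limma). This value lay just above the threshold of 0.05, and it passed with the stricter filter (adjusted p = 0.0474), with arrays centered on their medians (0.0401), with an intensity trend and robust moderation (0.0446), with each gene counted once (0.0386) and without trained Stau2GT mouse 3 (0.0230). *Mobp* (-0.15) was also lower without overlap, which is 2 of 9 genes against 12.9% of all clusters, and *Cldn11* (0.09) was higher without overlap, which is 1 of 9 against 15.2%. *Ugt8a* (-0.17), *Mag* (-0.15), *Mog* (-0.12), *Cnp* (-0.08), *Mbp* (-0.01) and *Opalin* (0.10) overlapped between trained and naive mice. None of the 9 passed after adjustment, whether with limma, which called 6.11% of all clusters, or with the methods' t-test. From limma, 1 of 9, *Aspa*, was lower at an unadjusted p under 0.05, against 12.1% of all clusters.

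**Figure D3:**
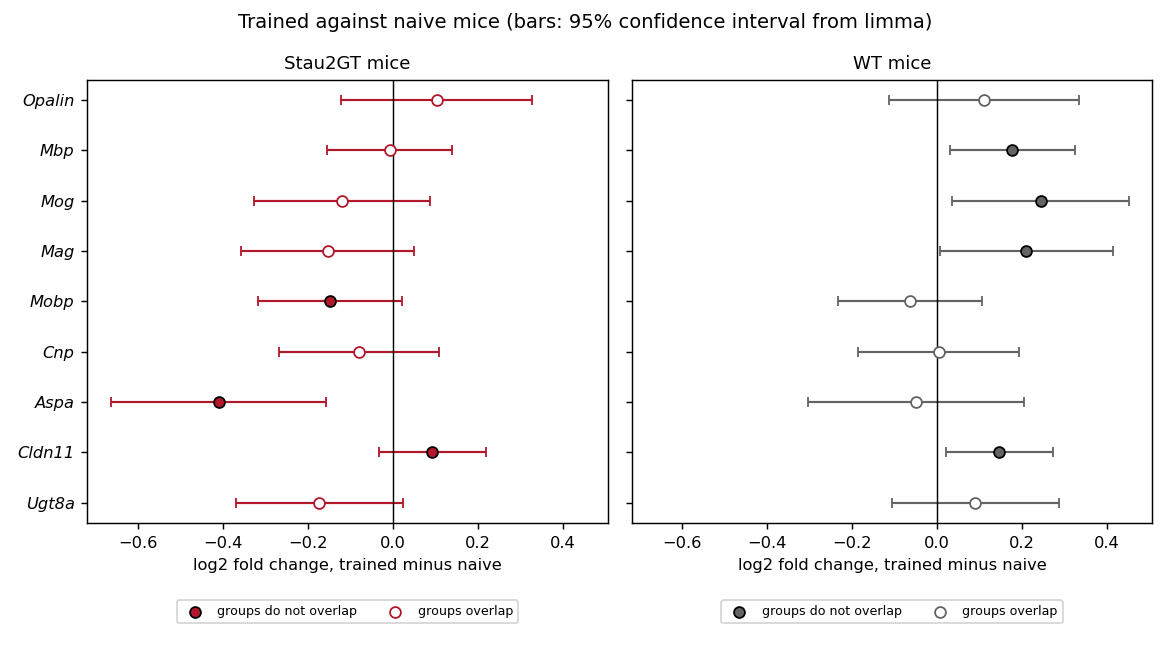
Log2 fold changes of trained against naive mice for the 9 genes in Stau2GT (left) and WT (right) brains, with 95% confidence intervals from limma. Filled points mark genes whose mice did not overlap, and *Aspa* in Stau2GT brains (-0.41) lies farthest from the line at no difference.

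Genes beyond the 9 were taken from lists of the oligodendrocyte lineage. Of 34 other genes of mature oligodendrocytes and myelin, 30 had a cluster of their own symbol and passed the filter. In naive mice all 30 had a higher mean in Stau2GT than in WT brains, where 49.0% of all clusters had. The differences were 0.01 to 0.19, with a median of 0.11. The highest were *Gjc3*, the gene of a gap junction protein of oligodendrocytes (0.19), and *Tmem88b* (0.19), and the lowest were *Gsn*, the gene of the actin-severing protein gelsolin (0.01), and *Mal*, the gene of a proteolipid of myelin (0.02). Of the 30, 7 were higher without overlap, against 6.39% of all clusters, and 4 were higher at an unadjusted p under 0.05 from limma, against 2.45%. None passed after adjustment. The number above 0 was 28 to 30 when each array was left out in turn and 29 or 30 with the other settings. In trained mice 8 of the 30 were above 0, against 50.9% of all clusters, their median was -0.05, and none passed after adjustment. There 4 were lower without overlap, against 5.02% of all clusters, and 1 was higher, against 6.15%. The count above 0 in trained mice was 13 without trained Stau2GT mouse 2, and 6 at the fewest over the other settings. *Gsn* was lowest there (-0.35, unadjusted p = 0.000516, adjusted p = 0.150 from limma). The number of the 30 with an interaction value below 0 was 27, against 49.1% of all clusters.

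The mean level of these 30 genes was 7.89 to 7.91 over the naive Stau2GT mice and 7.71 to 7.84 over the naive WT mice. For the 9 genes the mean level was 9.04 to 9.10 in naive Stau2GT mice and 8.84 to 8.93 in naive WT mice, and in neither set did the mice overlap. This was not particular to these sets. Committed precursors and newly formed oligodendrocytes, a list described below, averaged 7.58 to 7.60 in naive Stau2GT and 7.45 to 7.57 in naive WT mice. The list of blood vessels averaged 7.40 to 7.47 in naive Stau2GT and 7.30 to 7.39 in naive WT mice. In trained mice the 9 genes averaged 8.94 to 9.03 in Stau2GT and 8.94 to 9.05 in WT brains, which overlapped almost completely. Between training states, 2 of the 30 genes passed with limma in Stau2GT brains, where 6.11% of all clusters did, and 2 in WT brains, where 1.40% did. *Gsn* rose by 0.40 (adjusted p = 0.0248) and *Tmem125*, the gene of a transmembrane protein, by 0.38 (adjusted p = 0.0391) in trained against naive WT brains. In trained against naive Stau2GT brains *Tmem125* rose by 0.31 (adjusted p = 0.0399), and *Anln*, the gene of the septin- and actin-binding protein anillin, fell by 0.42 (adjusted p = 0.0109).

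The lists of earlier stages of the lineage held genes on both sides of 0 in naive mice. Of all clusters tested, 49.0% were above 0 in naive and 50.9% in trained mice. Among 14 genes of committed precursors and newly formed oligodendrocytes, 10 were above 0 in naive mice and 4 in trained mice, with medians of 0.05 and -0.05, and *Bmp4*, the gene of a secreted growth factor (0.23), and *Enpp6*, the gene of a choline phosphodiesterase of newly formed cells (0.18), were highest in naive mice. At the other end of that list were *Fyn*, the gene of a kinase, and *Nfasc*, that of a cell adhesion molecule, both at -0.02. Among 12 genes of oligodendrocyte precursor cells, 4 were above 0 in naive mice, with a median of -0.03. *C1ql1*, the gene of a secreted protein (0.13), and the proteoglycan gene *Cspg4* (0.12) were highest, and the protocadherin gene *Pcdh15* (-0.16) and the proteoglycan gene *Vcan* (-0.15) lowest. Among 11 transcription factors of the lineage, the median was 0.00 in both training states. The homeodomain gene *Nkx2-2* (0.18) and the zinc finger gene *St18* (0.15) were highest in naive mice, and the basic helix-loop-helix gene *Olig2* (-0.08) and the zinc finger gene *Zfp488* (-0.07) lowest. *Myrf*, whose letters are printed above, stood between them with 0.09 (unadjusted p = 0.273 from limma) in naive mice and -0.10 in trained mice. None of the genes of these 3 lists passed in either training state with limma. In naive mice 1, *Nkx2-2*, was higher at an unadjusted p under 0.05, against 2.45% of all clusters. In trained mice 1, *Sox8*, was lower (-0.15, unadjusted p = 0.0445 from limma), against 4.06% of all clusters.

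The lipid side of myelin was read from the enzymes of its synthesis. Its counts stand beside 49.0% of all clusters above 0 in naive and 50.9% in trained mice. Of 16 genes of sphingolipid and very long chain fatty acid synthesis, 10 were above 0 in naive mice, with a median of 0.03, and the fatty acid elongase genes *Elovl7* (0.21) and *Elovl1* (0.11) were highest. *Fasn*, the gene of fatty acid synthase (-0.06), and *Elovl6* (-0.05) were lowest. Of 18 genes of cholesterol synthesis and its control, 8 were above 0 in naive mice, with a median of 0.00, *Hmgcs1*, which acts early in the pathway (0.25), and *Lss*, the gene of lanosterol synthase (0.09), being highest and *Cyp51* (-0.11) and *Sqle*, the gene of squalene epoxidase (-0.06), lowest. In trained mice 14 of these 18 were below 0 and the median was -0.09. There 5 had an unadjusted p under 0.05 from limma, all lower, against 4.06% of all clusters, and none passed after adjustment. The lowest were *Cyp51* (-0.33, adjusted p = 0.326), which codes for lanosterol demethylase, and *Nsdhl* (-0.32, adjusted p = 0.261). *Nsdhl*, which codes for a sterol dehydrogenase, fell by 0.32 in trained against naive Stau2GT brains (adjusted p = 0.0378 from limma).

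**Figure D4:**
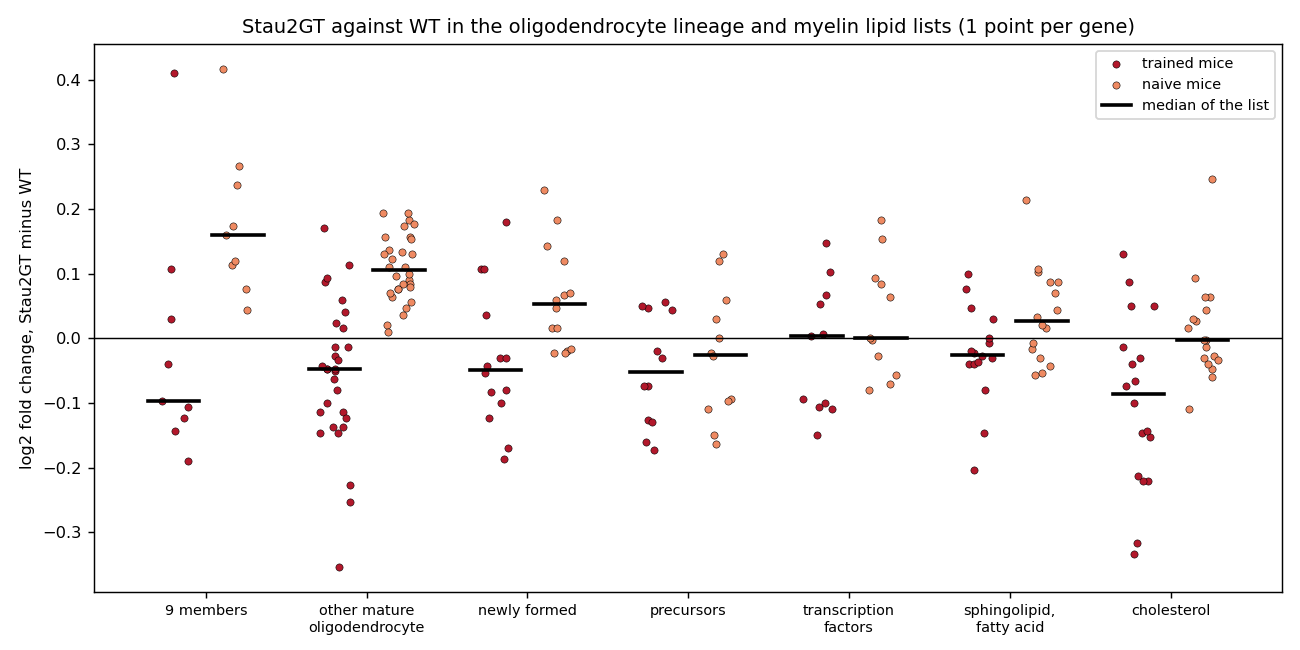
Log2 fold changes of Stau2GT against WT brains, 1 point per gene, for the 9 genes and 6 lists of the lineage and of myelin lipids, in trained (left of each pair) and naive (right of each pair) mice, with a line at the list's median. In naive mice the 9 genes (median 0.16) and the 30 other mature genes (median 0.11) all lie above 0, and the lists of earlier stages and of lipid synthesis lie on both sides of it.

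Markers of other cells and regions of the brain were set beside these values, since a brain lysate can hold more or less of each. Counts above 0 again stand beside 49.0% of all clusters in naive and 50.9% in trained mice. In naive mice the median log2 fold change of Stau2GT against WT was 0.00 over 13 neuronal genes, 0.03 over 11 astrocyte genes, 0.01 over 10 microglial genes, 0.09 over 10 genes of blood vessels, 0.01 over 10 genes of nodal and paranodal partners on the axon and -0.03 over 6 genes of Schwann cells, the myelinating cells of peripheral nerve. The choroid plexus, which secretes cerebrospinal fluid, had the highest median of these lists in naive mice. Of its 8 genes, 7 were above 0 in trained mice (median 0.17) and 6 in naive mice (median 0.12), and over both training states all 8 were (median 0.18), 3 of them with an unadjusted p under 0.05 from limma, against 3.19% of all clusters. Its list averaged 7.09 to 7.33 in trained Stau2GT and 6.83 to 7.13 in trained WT mice, and 7.12 to 7.33 in naive Stau2GT and 6.90 to 7.24 in naive WT mice, so the genotypes overlapped in both states. None of the genes of these lists passed between the genotypes in either training state with limma. Of 11 genes of the olfactory bulb, 9 were below 0 in naive mice, as were 49.7% of all clusters, with a median of -0.12. Of the 11, 4 had an unadjusted p under 0.05 from limma, all lower, against 2.54% of all clusters, and their mean level was 7.04 to 7.09 in naive Stau2GT mice and 7.13 to 7.32 in naive WT mice. Of 11 genes of the cerebellum 10 were above 0 in naive and 10 in trained mice (medians 0.07 and 0.19), and of 9 genes of the brainstem and upper spinal cord, a region rich in myelin, 6 were above 0 in naive mice (median 0.08). The cerebellum list averaged 8.11 to 8.48 in naive Stau2GT mice and 8.13 to 8.44 in naive WT mice, and the brainstem list 5.59 to 5.86 in naive Stau2GT mice and 5.54 to 5.74 in naive WT mice, so both overlapped. *Neurod1* of the cerebellum list, which codes for a basic helix-loop-helix factor of neurons, rose by 0.73 in trained against naive Stau2GT brains (adjusted p = 0.0195 from limma). In trained against naive WT brains the highest value of that list was 0.62, and none of its genes passed. The interaction values of the list lay between -0.06 and 0.17, so the rise was not particular to Stau2GT brains. The part of the choroid plexus and of brain regions in the values of the 9 genes was not tested.

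Mice of one group also differed among themselves, and the 9 genes did not deviate as one block. Over the 12 arrays, with each group's mean subtracted, 22 of the 36 pairs of genes had a correlation above 0, 13 above 0.5 and 6 below -0.5. The highest was that of *Mag* and *Cnp* (r = 0.89) and the lowest that of *Mbp* and *Ugt8a* (r = -0.85). All 9 values of a mouse come from 1 array, so the points share its normalization and quality. *Cnp* lay closest to the mean of the other 8 genes (r = 0.94), followed by *Mog* (0.79) and *Mag* (0.69), and *Ugt8a* (-0.51) and *Mobp* (-0.33) ran against it. *Opalin* had r = 0.41 to that mean, with *Mbp* (0.30) and *Aspa* (0.05) below it. Gene by gene, *Opalin* went with *Mag* (0.72), *Cnp* (0.66), *Mog* (0.59) and *Mbp* (0.58). It was near 0 with *Cldn11* (0.04) and *Aspa* (0.01) and below 0 with *Mobp* (-0.68) and *Ugt8a* (-0.46). In the trained Stau2GT group, mouse 1 was the highest of the 3 for *Mbp*, *Mog*, *Mag*, *Cnp* and *Cldn11* and the lowest for *Ugt8a*, and mouse 3 was the lowest for the same 5 genes and the highest for *Ugt8a*. These 3 arrays also had the lowest weights when the fit estimated one per array, at 0.596 to 0.699, against 0.987 to 1.39 for the other 9.

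**Figure D5:**
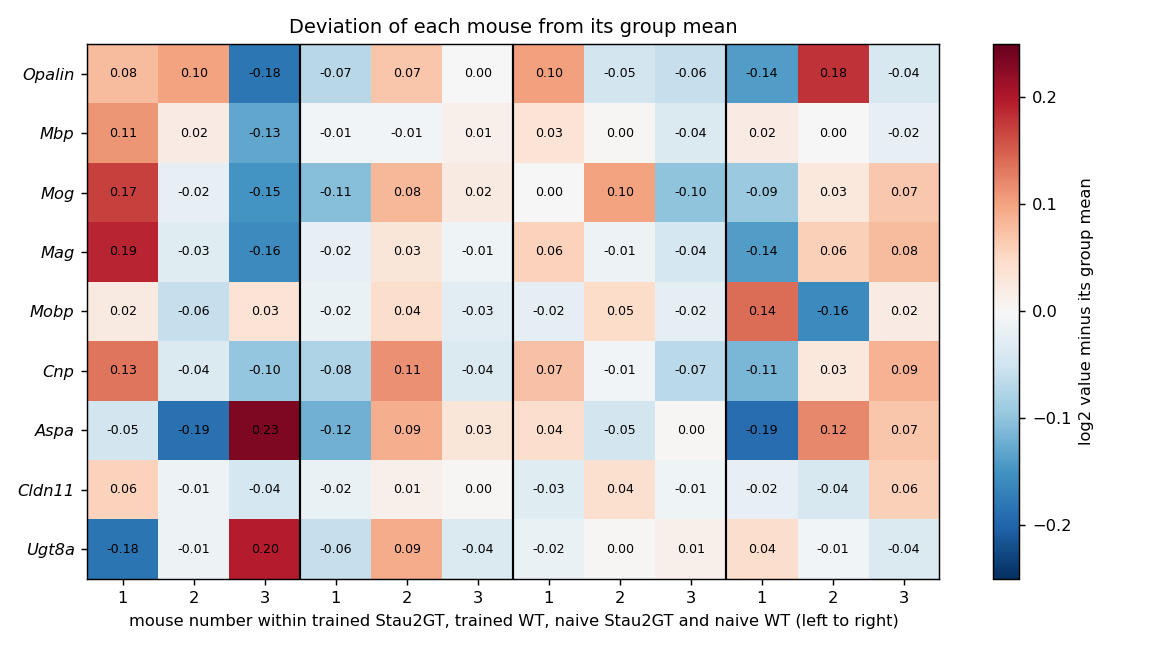
Deviation of each mouse from its group mean in log2 units, for the 9 genes (down) and the 3 mice of each group (across). In trained Stau2GT mice, on the left, mouse 1 is high for *Mag* (0.19) and *Mog* (0.17) and low for *Ugt8a* (-0.18), and mouse 3 has the opposite signs.

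Among the other named genes, those whose deviations within groups were most like the mean of the 9 were *Rnf4* (r = 0.97), *Fbxw8* (0.96), *H1f2* (0.96), *Gas6* (0.96) and *Mlc1* (0.96), over 12 arrays. None of the 15 most alike belonged to any of the lists used here. The median r to this mean was 0.45 over the 30 other mature genes and 0.43 over the 11 transcription factors of the lineage. Lists of other cells had values near these, with 0.41 for microglia, 0.36 for the choroid plexus and 0.34 for astrocytes, and the 12 genes of precursor cells had 0.33. The median was 0.13 over the 13 neuronal genes, -0.05 over the olfactory bulb list and 0.10 over all 16416 other named genes. These values are descriptions over arrays that share their normalization.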

How the data were processed

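RNA from brains of 12 mice was measured on Affymetrix Mouse Gene 2.0 ST arrays. The values deposited by the authors are on the log2 scale, 1 for each transcript cluster on each array, after RMA normalization in the R package oligo. The sources used here give neither its version nor whether the 12 arrays went through RMA together. All 12 columns of values were used, and 0 were left out. Symbols came from the platform annotation, and only clusters with 1 symbol were named, with the cluster of the highest mean standing for a gene.

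As in the methods of the study, clusters that exceeded 5 on the log2 scale in 3 or more arrays were kept (27966 of 41345, of which 17331 had 1 symbol). A model of 4 group means was fitted to the 12 arrays with limma 3.58.1 (R 4.3.3; statmod 1.5.0 for the robust and block fits), leaving 8 residual degrees of freedom beside 2.78 prior ones. Benjamini-Hochberg adjustment ran over every cluster kept. The threshold was an adjusted p of 0.05. Exact permutation tests for single genes cannot go below 0.1 with 3 mice against 3. The fit was tested on simulated data. The number of arrays limits the precision, and p-values measure the spread between these arrays.

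The 9 genes, and the 16 other lists with 224 genes, were chosen with earlier results of these data known. Counts over them and p-values of single genes among them are therefore descriptions. All 9 genes are named, and from the other lists those that passed and the 2 highest and 2 lowest in naive mice for the lists of the lineage and its lipids, with a few further genes named after their values were seen. The 15 genes most alike in their deviations were ranked, and the first 5 are named. The sources used here do not say how the replicate numbers of the titles were assigned, and the mice were not treated as pairs. Alternatives were no filter, a filter at 6, quantile normalization, median centering, robust moderation with an intensity trend, weights per array, a block for the replicate number, only the 6 arrays compared, the methods' t-test, the mean over a gene's clusters, and leaving out each array. Calls with the t-test were made after adjustment, and its unadjusted p-values are not given here. Sequences are from RefSeq (GRCm38.p6).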

Additional observations from a re-analysis of the deposited data

How the results depend on the processing

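Under all alternatives *Opalin* and *Cldn11* were higher in Stau2GT brains in both training states, and no member passed after adjustment in either state. How replicate numbers were assigned is not stated, and correlations of same-numbered mice were low (-0.0272 to 0.0686). In Stau2GT training they were 0.0289 to 0.0623 for the same number and -0.0455 to -0.0036 for different numbers, so pairing cannot be settled from them. With the replicate number as a block the median log2 fold change of the 9 genes was -0.0967 in trained and 0.16 in naive mice, with no call changed.

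With quantile normalization, *Mobp* over both states was -0.0078, the median of Stau2GT training was -0.0531 and *Mbp* there 0.0558. With median centering, *Mobp* over both states was -0.01, *Cnp* -0.0067 in the trained genotype comparison and -0.02 in WT training. In that setting 1 gene was lower without overlap in trained mice, and in Stau2GT training the median was -0.1933 and 0 genes were higher without overlap. With array weights *Cnp* in WT training was -0.0048. The interaction of *Opalin* was 0.0349 with quantile normalization and 0.0122 with array weights, which left 1 gene above 0. Stau2GT training had 1 gene past the threshold, *Aspa*, with the filter at 6, median centering, the intensity trend and genes counted once, and the last setting gave 1, *Opalin*, over both states.

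Leaving out single arrays moved log2 fold changes near 0 to either side. In the naive genotype comparison *Mobp* ran from -0.0367 to 0.1133, and in the trained one *Cnp* from -0.0367 to 0.0867. Over both states *Mbp* ran from -0.0425 to 0.0175, *Mag* from -0.0558 to 0.0317, *Mobp* from -0.0383 to 0.0367, *Aspa* from -0.0017 to 0.1033 and *Ugt8a* from -0.0608 to 0.0342, with 0 to 1 genes passing. In WT training *Mobp* ran from -0.1433 to 0.0067, *Cnp* from -0.0533 to 0.0467 and *Aspa* from -0.145 to 0.01, with 0 to 1 genes lower without overlap. In Stau2GT training *Mbp* ran from -0.0617 to 0.0583 and the median from -0.1583 to -0.045, with 0 to 1 genes passing, 1 to 2 higher and 2 to 5 lower without overlap. In the trained genotype comparison the median ran from -0.11 to -0.03, with 0 to 3 genes lower without overlap. Leaving out an array of a comparison sets 2 mice against 3. In trained mice without Stau2GT mouse 1, 13.6% of all clusters were then lower without overlap, against 5.02% with it. For the other arrays such shares were not taken, so the ranges of these counts are descriptions only. In the interaction *Opalin* ran from -0.0967 to 0.0833 and the median from -0.2017 to -0.1183, with 0 to 1 genes above 0. The cause of these shifts was not tested. The number of arrays limits the precision of all of them.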
